A study of Rattus norvegicus with 10 samples.

Results

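Insulin release from the β-cell is tuned by G protein-coupled receptors (GPCRs), membrane proteins that sense hormones, lipids and neurotransmitters and pass the signal to heterotrimeric G proteins inside the cell. 10 such receptor genes were followed here in sorted rat β-cells: Glp1r, Gipr, Gcgr, Gpr119, Ffar1, Chrm3, Casr, Adra2a, Sstr3 and Adora1. They were chosen by gene symbol, as receptors of incretins, glucagon, lipids, neurotransmitters, calcium and adenosine, and make up 10 of the 23918 genes in the deposited table. All 10 had enough reads to be tested, among 12941 tested genes.

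The cells were β-cells of adult Sprague-Dawley rats, separated from dispersed islets by FACS on their autofluorescence and plated. They received either a pool of siRNAs against Scrt1, a zinc-finger transcriptional repressor of the Snail superfamily (siScrt1), or a negative control siRNA (siCtrl), and RNA was extracted 48 h after transfection. Each group held 5 libraries, named siCtrl replicates 1 to 5 and siScrt1 replicates A to E. The comparison asks which receptor transcripts change when Scrt1 is lowered in adult cells. Both groups went through sorting, plating and lipid transfection, and no untransfected cells were analysed here. The labels do not say that the libraries came from separate animals, so the p-values measure the spread between libraries, which may in part be technical.

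The receptors fall into classes by the G protein that each is best known to use. GLP1R, GIPR, GCGR and GPR119 signal mainly through Gs, which switches on adenylyl cyclase and raises cAMP, and cAMP amplifies insulin release when glucose is high. FFAR1, CHRM3 and CASR signal mainly through Gq, which activates phospholipase C and so releases calcium from internal stores. ADRA2A, SSTR3 and ADORA1 signal through Gi, which restrains adenylyl cyclase and lowers release. ADRA2A is the main brake that adrenaline and noradrenaline apply to the β-cell.

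Library depth ran from 11901342 to 17444034 reads and did not separate the groups, whose means were 14139599 ± 1482962 for siCtrl and 14721995 ± 2049887 for siScrt1 (SD over 5 libraries, two-sided exact permutation p = 0.635). Between 8.88% and 14.97% of the reads came from Ins1 and Ins2, which encode insulin. Scrt1 (ENSRNOG00000025594), the targeted gene, was at 8.78, 6.34, 8.60, 10.2 and 6.75 TPM in siCtrl replicates 1 to 5 and at 3.40, 2.53, 2.58, 1.24 and 0.928 TPM in siScrt1 replicates A to E. TPM, transcript abundance per length and library total, is a level per transcript length, here with the authors' scaling between libraries. The groups did not overlap, with a log2 fold change of -2.06 (SE 0.308, adjusted p = 0.00618, limma). The 9 β-cell markers in the table summed to between 103518 and 166716 CPM (reads relative to the library total, not per length), and the groups overlapped. Gcg, the glucagon gene of α-cells, was at 210 to 579 CPM in siCtrl and 206 to 459 CPM in siScrt1, and the mesenchymal markers summed to at most 30.9 CPM. The duct list, at 212 to 295 CPM, was led by Krt7, with a mean of 221 CPM. None of the 8 cell type marker sums passed a test between the groups (exact two-sided permutation tests, lowest p = 0.119, adjusted p = 0.717). In bulk RNA, fewer cells of a type and less RNA per cell cannot be told apart.

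In control cells Glp1r, an incretin receptor, led the 10. It had the highest level, 111 ± 18.5 TPM (SD, n = 5), and lay at percentile 95.7 of the tested genes. Gipr followed with 72.1 ± 22.0 TPM, Gcgr with 64.1 ± 7.33, Ffar1 with 57.7 ± 6.85, Adra2a with 56.3 ± 8.08 and Gpr119 with 41.9 ± 11.8 TPM. Then came a step down to Adora1 at 12.3 ± 2.15, Sstr3 at 9.54 ± 1.34, Chrm3 at 6.33 ± 0.732 and Casr at 2.99 ± 0.666 TPM. Casr, the calcium-sensing receptor, lay at percentile 23.6 of the tested genes. The mean Glp1r level was 37.2 times the Casr level (SD over libraries of the ratio 7.43), against 25.9 times by CPM, a scale that does not account for transcript length.

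Only some of these steps stood clear of the spread between libraries. Glp1r was above Gipr in 5 of 5 siCtrl and 5 of 5 siScrt1 libraries, although the ranges of the receptors overlapped across libraries. Gipr, Gcgr, Ffar1 and Adra2a could not be ordered: Gipr was above Gcgr in 3 of 5 siCtrl libraries, and Ffar1 was above Adra2a in 3 of 5 siCtrl and 1 of 5 siScrt1 libraries. Adra2a ranked 5 in siCtrl and 2 in siScrt1. The siCtrl ranges of neighbours were apart at 2 steps of the order, from Gpr119 down to Adora1 and from Chrm3 down to Casr. Compared with other genes, 6 receptors of all 3 coupling classes had more transcript per length than 86.2% of the tested genes. The 4 others, Adora1, Sstr3, Chrm3 and Casr, lay between percentiles 23.6 and 56.7.

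**Figure D1:**
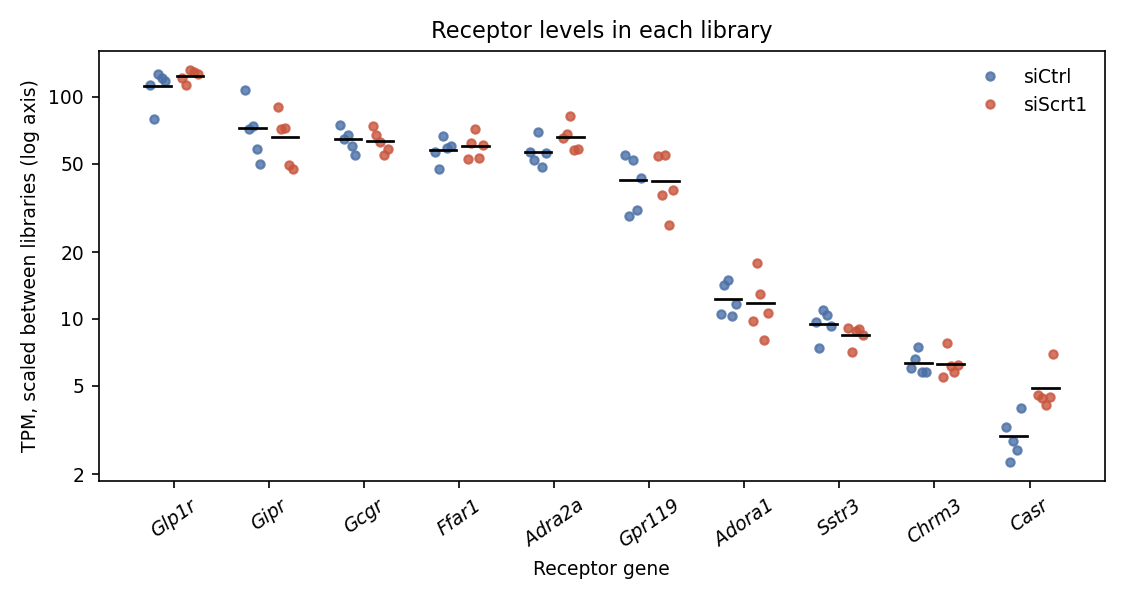
TPM of the 10 receptor genes (log axis) in each of the 5 siCtrl and 5 siScrt1 libraries, 1 point per library, with horizontal lines at the group means. By group mean, Glp1r lies highest and Casr lowest in both groups, and Casr is the receptor whose 5 siScrt1 points all lie above its 5 siCtrl points.

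Scrt1 encodes a repressor that binds E-box DNA with the core CAGGTG, so the stretches before the receptors' starts were read for these letters. The windows came from RefSeq (build GRCr8, whereas the deposited table rests on Rnor6), reached from 250 bases before to 50 after a gene's start, and covered 9 receptors in 10 windows, since Gcgr has 2. Gipr is not among them. The longer motif CAACAGGTG, read on both strands, was in 0 of the 10 windows and in 0.203% of 33469 windows of the same length. Its core CAGGTG, read as CACCTG on the other strand, was in 5 of the 10 and in 18.8% of all windows. No binding was measured, so a match describes the sequence only.

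The stretch before the Casr start is shown in full, with the core in capitals, because Casr had the largest difference between the groups of the 10 receptors. It covers chr11:77740364-77740613 of GRCr8, plus strand, written 5′ to 3′, and its core starts 88 bases before the gene's start.
Casr: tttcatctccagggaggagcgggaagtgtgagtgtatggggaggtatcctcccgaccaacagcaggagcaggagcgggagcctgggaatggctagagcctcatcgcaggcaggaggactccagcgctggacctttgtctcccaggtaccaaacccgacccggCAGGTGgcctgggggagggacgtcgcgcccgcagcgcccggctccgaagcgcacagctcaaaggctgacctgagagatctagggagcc

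The cores of the other 4 receptors that hold one are shown with the bases around them, in the orientation of the gene and with the core in capitals, for comparison with Casr. They lie at chr20:8973357-8973392 (plus strand) for Glp1r, 21 bases before the start, at chr17:64696873-64696908 (plus) for Chrm3, 39 bases before it, and at chr7:111980469-111980500 (minus) for Sstr3, 239 bases before it. Adora1 has 2 cores, at chr13:48247037-48247072 and chr13:48246814-48246849 (minus). They begin 226 and 3 bases before the gene's start, so the second runs across it.
Glp1r: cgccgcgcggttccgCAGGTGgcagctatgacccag
Chrm3: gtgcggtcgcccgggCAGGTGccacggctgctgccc
Sstr3: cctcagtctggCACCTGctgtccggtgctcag
Adora1, first: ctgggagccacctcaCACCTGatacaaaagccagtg
Adora1, second: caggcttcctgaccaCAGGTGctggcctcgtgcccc

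Knock-down of Scrt1 left 9 of the 10 receptors within a narrow range, and Casr stood apart from them. No receptor passed an adjusted p of 0.05 in the fit with group as the only term, where 1.05% of the tested genes did, 0.371% being raised and 0.680% lowered. limma-voom on the recovered reads also called 0 of the 10, with 1.06% of genes called. At an unadjusted p under 0.05 there was 1 receptor, Casr, against 11.1% of all tested genes. Of the 10, 4 had a higher and 6 a lower mean in siScrt1. The median log2 fold change of the receptors was -0.02 beside 0.0035 for all tested genes, and the median absolute value was 0.115 beside 0.106. For all receptors but Casr, the 95% interval of the log2 fold change excluded a change of 1.5-fold in either direction, with bounds from -0.58 to 0.47.

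**Figure D2:**
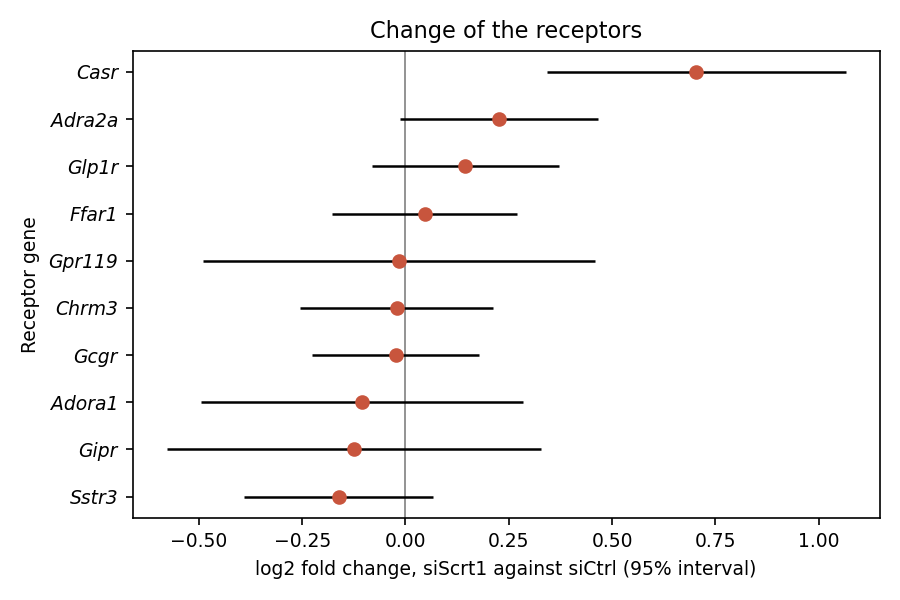
log2 fold change of each receptor in siScrt1 against siCtrl (x axis, points) with its 95% interval from limma (bars), n = 5 libraries per group. The interval of Casr runs from 0.34 to 1.07 and lies to the right of 0, whereas those of the other 9 receptors include 0.

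Among the Gs-coupled receptors, Glp1r (ENSRNOG00000001152), the receptor of the gut incretin GLP-1, was at 112, 79.3, 126, 121 and 118 TPM in siCtrl replicates 1 to 5 and at 122, 112, 131, 128 and 127 TPM in siScrt1 replicates A to E. The groups overlapped, siCtrl replicate 2 lay well below the other 9 libraries, and siScrt1 was above siCtrl in 5 of 5 pairs of libraries that share a number in the deposited table. The smallest of these differences in log2 scaled count was 0.009, for number 4. How often all 5 pairs agree over the tested genes was not counted. The log2 fold change was 0.14 (SE 0.105, 95% interval -0.08 to 0.37, adjusted p = 0.649, limma), from 3573 to 6184 reads a library, and was 0.040 without siCtrl replicate 2 (adjusted p = 0.934, limma). Gipr (ENSRNOG00000015860), the receptor of the other incretin, GIP, was at 107, 71.6, 74.0, 58.2 and 49.5 TPM in siCtrl and at 90.1, 71.5, 72.1, 49.2 and 47.1 TPM in siScrt1. Its libraries differed more within each group than between the groups (log2 fold change -0.13, SE 0.209, 95% interval -0.58 to 0.33, adjusted p = 0.874, limma). The differences in log2 scaled count within pairs 1 to 5 were -0.25, -0.003, -0.05, -0.24 and -0.08, so pair 2 was nearly level.

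Gcgr (ENSRNOG00000036692), through which glucagon from neighbouring α-cells acts on the β-cell, was at 74.1, 64.5, 67.3, 60.1 and 54.7 TPM in siCtrl and at 73.4, 67.5, 62.7, 54.7 and 57.9 TPM in siScrt1. The ranges nearly coincided (log2 fold change -0.02, SE 0.0934, 95% interval -0.23 to 0.18, adjusted p = 0.952, limma). Gcgr reads were shared among 3 transcripts of 1873, 1865 and 1730 nt, which took 8.86%, 56.9% and 34.2% of the gene's reads in siCtrl and 11.5%, 55.4% and 33.1% in siScrt1. The share of the longest ran from 0% to 21.5% in siCtrl libraries, and none of the 3 shares passed a test between the groups (exact two-sided permutation tests, lowest p = 0.492, adjusted p = 0.944 over the 10 transcripts of multi-transcript receptors). Gpr119 (ENSRNOG00000024517), which binds fatty acid amides and monoacylglycerols, was at 54.6, 29.1, 52.1, 30.8 and 43.1 TPM in siCtrl and at 53.9, 36.0, 54.4, 26.5 and 37.9 TPM in siScrt1. High and low libraries occurred in both groups (log2 fold change -0.02, SE 0.219, 95% interval -0.49 to 0.46, adjusted p = 0.989, limma).

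Of the Gq-coupled receptors, Casr (ENSRNOG00000002265) showed the largest difference of the 10. The stretch before its start is printed with the promoters. The CAGGTG core that it holds was in 5 of the 10 receptor windows and 18.8% of all windows, and its part in this difference was not tested. CASR senses extracellular calcium and is best known from the parathyroid gland, where it sets hormone release. Its level was 3.28, 2.28, 2.84, 2.57 and 3.98 TPM in siCtrl replicates 1 to 5 and 4.53, 4.40, 4.12, 4.47 and 6.96 TPM in siScrt1 replicates A to E. Every siScrt1 library lay above every siCtrl library, by TPM and by the scaled counts that were tested, a pattern seen in the raised direction for 1.48% of the tested genes by scaled counts (3.51% in either direction). The means were 2.99 ± 0.666 and 4.90 ± 1.16 TPM (SD, n = 5 each), and the log2 fold change was 0.70 (SE 0.167, 95% interval 0.34 to 1.07), or 1.63-fold (1.27 to 2.09). The unadjusted p was 0.00105 and the adjusted p 0.0739 (limma), short of the threshold. Without siScrt1 replicate E, the highest library, the log2 fold change was 0.57 (adjusted p = 0.138, limma), and without siCtrl replicate 5 it was 0.82 and passed (adjusted p = 0.0430, limma).

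The deposited table numbers the libraries 1 to 5 in each group. Deviations of same-numbered libraries from their group means correlated over genes at 0.131 to 0.351. For number 2, at 0.131, this was below the 0.167 reached between libraries 2 and 3 of opposite groups. With the library number as a block, the log2 fold change of Casr was 0.70 with an SE of 0.0919. It passed the threshold (adjusted p = 0.00483, limma), where 2.00% of the tested genes were called and 0.811% were called as raised. Casr was higher in siScrt1 in 5 of 5 pairs, by differences in log2 scaled count of 0.47, 0.94, 0.53, 0.80 and 0.79. The siScrt1 library with the highest level, replicate E at 6.96 TPM, shares its number with the siCtrl library of the highest level, replicate 5 at 3.98 TPM. The libraries of the lowest level, siCtrl replicate 2 at 2.28 TPM and siScrt1 replicate C at 4.12 TPM, do not share a number. In fits with the block that left out both libraries of 1 number at a time, an alternative added after the data were seen, Casr passed in 5 of 5 (log2 fold change 0.64 to 0.76, adjusted p from 0.00842 to 0.0293, limma). No other receptor passed with the block, the next being Adra2a (adjusted p = 0.0907, limma).

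The Casr reads were few enough to weigh counting error. The libraries held 189, 143, 197, 176 and 241 reads in siCtrl and 228, 335, 245, 317 and 467 in siScrt1. By CPM, which leaves out the scaling between libraries, the groups touched: siScrt1 replicate C at 17.7 CPM (95% interval 15.6 to 20.1, counting error only) lay below siCtrl replicate 5 at 18.4 CPM (16.1 to 20.9). The reads were divided by the authors' tool among 3 transcripts of 4112, 4113 and 4325 nt, which took 5.04%, 70.8% and 24.2% of them in siCtrl and 6.05%, 70.4% and 23.5% in siScrt1 (exact two-sided permutation tests of the shares, lowest p = 0.706). The log2 fold changes of the transcripts were 1.38, 0.69 and 0.69 (SE 0.909, 0.196 and 0.302). No transcript passed the threshold alone (lowest adjusted p = 0.233, limma). The transcript of 4112 nt, with the 1.38, had a mean of only 14.6 reads a library and a minimum of 0.

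Ffar1 (ENSRNOG00000024009), the long-chain fatty acid receptor that amplifies insulin release in the presence of glucose, was at 56.3, 47.3, 66.2, 58.7 and 60.1 TPM in siCtrl and at 52.2, 61.8, 71.3, 53.2 and 60.8 TPM in siScrt1. The groups overlapped throughout (log2 fold change 0.05, SE 0.104, 95% interval -0.18 to 0.27, adjusted p = 0.905, limma). Chrm3 (ENSRNOG00000049410), the muscarinic receptor through which acetylcholine stimulates the β-cell, was at 6.03, 6.62, 7.48, 5.76 and 5.77 TPM in siCtrl and at 5.48, 7.77, 6.13, 5.76 and 6.23 TPM in siScrt1. It too showed no separation of the groups (log2 fold change -0.02, SE 0.108, 95% interval -0.25 to 0.21, adjusted p = 0.963, limma).

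Of the Gi-coupled receptors, Adra2a (ENSRNOG00000047545), the α2A-adrenergic receptor, was at 56.2, 51.9, 69.5, 48.2 and 55.6 TPM in siCtrl and at 64.9, 68.1, 81.7, 57.7 and 58.1 TPM in siScrt1. The ranges overlapped, yet siScrt1 was above siCtrl in 5 of 5 same-numbered pairs, by differences in log2 scaled count of 0.21, 0.39, 0.22, 0.26 and 0.06. The log2 fold change of 0.23 (SE 0.111, 95% interval -0.01 to 0.47) did not pass (adjusted p = 0.481, limma). Sstr3 (ENSRNOG00000007332), a receptor of the δ-cell hormone somatostatin, was at 9.67, 7.42, 10.9, 10.4 and 9.29 TPM in siCtrl and at 9.13, 7.14, 8.84, 9.01 and 8.45 TPM in siScrt1. It was lower in siScrt1 in 5 of 5 pairs, by a small amount that did not pass (log2 fold change -0.16, SE 0.106, 95% interval -0.39 to 0.07, adjusted p = 0.615, limma). Adora1 (ENSRNOG00000003442), an adenosine receptor, was at 10.5, 14.2, 14.97, 10.3 and 11.7 TPM in siCtrl and at 9.76, 17.9, 12.9, 8.03 and 10.6 TPM in siScrt1, with overlapping groups (log2 fold change -0.11, SE 0.180, 95% interval -0.49 to 0.28, adjusted p = 0.879, limma).

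**Figure D3:**
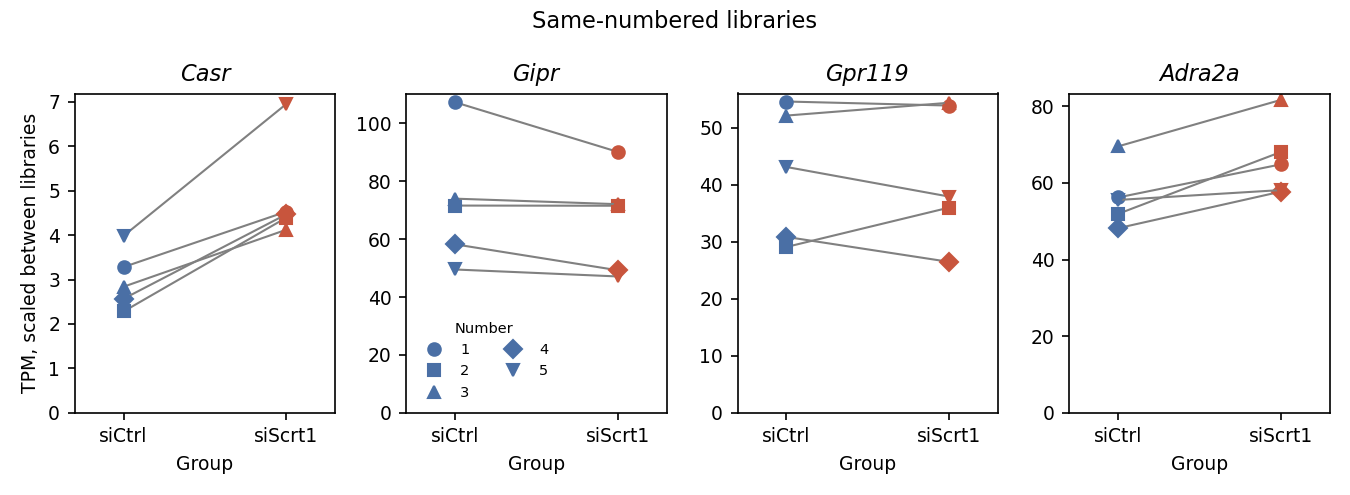
TPM (y axis, from 0) of Casr, Gipr, Gpr119 and Adra2a in siCtrl and siScrt1, with a line joining the 2 libraries that carry the same number in the deposited table. The Casr lines all slope upward. The Gipr lines start in siCtrl between 107 TPM for number 1 and 49.5 TPM for number 5, with those of numbers 2 and 3 close together.

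For several receptors the means of same-numbered pairs lay further apart, from highest to lowest, than the groups did. The highest and lowest of several means are apart by selection, so this contrast alone does not measure pairing. Gipr was highest in number 1 and lowest in number 5 in both groups, and the mean scaled count of the pair differed 2.03-fold between them. By the same measure, Gpr119 was 1.89-fold higher in number 1 than in number 4, and Adora1 1.73-fold higher in number 2 than in number 4. On the log2 scale of scaled counts the SD between pair means was 0.404 for Gipr, against an SD of 0.115 for the differences within pairs. The former exceeded the latter in 7 of the 10 receptors, whereas it did so for 23.2% of the tested genes, and the ratio of both SDs had a median of 1.53 over the receptors and 0.648 over all tested genes. It was lowest, at 0.696, in Ffar1 and highest, at 3.52, in Gipr. Without shared deviations between same-numbered libraries the ratio would be 0.5. The tested genes were not matched to the receptors by level, so this contrast does not single out the receptors. What the number stands for is not given in the labels.

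The 5 receptors with a core had log2 fold changes from -0.16 (Sstr3) to 0.70 (Casr), and the 4 without one from -0.02 to 0.23. G and C made up 76.0% of the Glp1r window, the highest share, and 9 of the 10 windows lay above the 51.7% median of all windows, the exception being Gpr119.

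The receptors act through a shared set of proteins, which was read from lists of gene symbols. Of 58 other islet GPCRs with a row, 23 had enough reads to be tested, and 0 passed in either direction by limma (1 at an unadjusted p under 0.05). Over all tested genes the shares were 1.05% past the adjusted and 11.1% past the unadjusted threshold. The most abundant of these receptors were Cckar, the cholecystokinin receptor, at 67.6 ± 14.9 TPM in siCtrl and 55.6 ± 16.5 in siScrt1 (adjusted p = 0.589, limma), Gprc5b at 46.0 and 46.2 TPM, and the ADP receptor P2ry1 at 42.0 and 36.8 TPM. The list's median log2 fold change was 0.02, and its log2 fold changes ran from -0.43 for Adora2a to 0.47 for Npy1r.

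Among 21 tested G protein subunits 1 fell and 0 rose, where 0.680% of all tested genes fell and 0.371% rose, and the list's median log2 fold change was -0.06. At an unadjusted p under 0.05 (limma) there were 5, where 11.1% of all tested genes were. Gng4 (ENSRNOG00000047080), a γ subunit, was at 79.9, 113, 106, 101 and 116 TPM in siCtrl and at 71.6, 78.5, 79.9, 62.7 and 66.3 TPM in siScrt1. It was lower in 5 of 5 pairs, with the groups just touching (log2 fold change -0.52, SE 0.105, adjusted p = 0.0341, limma). This call was lost in 8 of the 10 fits that left out 1 library, all but those without siCtrl replicate 1 or siScrt1 replicate C, with adjusted p up to 0.109 (limma). Gnai3, an inhibitory α subunit, went from 44.1 ± 3.22 to 36.4 ± 1.80 TPM and was picked out after its values were seen, because it passed with the block (log2 fold change -0.28, adjusted p = 0.0739 without and 0.0326 with the block, limma). Gnas, the stimulatory α subunit of the Gs receptors, was at 4482 TPM in siCtrl and 4128 in siScrt1 (adjusted p = 0.898, limma). Gna11, a Gq family subunit, had the largest positive log2 fold change of the list, 0.27 (adjusted p = 0.122, limma). Its scaled counts did not overlap between the groups, as for 1.48% of the tested genes in the raised direction.

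In the arm of phospholipase C and calcium release, 1 of 23 tested genes rose and 0 fell, beside 0.371% and 0.680% of all tested genes. At an unadjusted p under 0.05 (limma) there were 6, where 11.1% of all tested genes were. Itpr2 (ENSRNOG00000001804), an IP3 receptor that releases calcium from the endoplasmic reticulum, was at 6.14, 5.91, 6.0004, 6.23 and 5.79 TPM in siCtrl and at 7.52, 6.96, 7.48, 7.93 and 7.48 TPM in siScrt1. The groups did not overlap (log2 fold change 0.31, SE 0.0575, adjusted p = 0.0228, limma). By scaled counts, 1.48% of the tested genes showed no overlap in the raised direction. The call was lost in 5 of 10 fits without 1 library (siCtrl replicate 5 or siScrt1 replicate A, C, D or E) and on both TPM scales, with adjusted p up to 0.0929 (limma). Plcb4 and Plcb1, the phospholipases that Gq activates, were at 15.5 and 12.9 TPM and at 15.01 and 13.8 TPM in siCtrl and siScrt1 (adjusted p = 0.275 and 0.572, limma).

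In the cAMP arm 0 of 34 tested genes passed (7 at an unadjusted p under 0.05), beside 1.05% and 11.1% of all tested genes. The regulatory subunits of protein kinase A Prkar1a and Prkar1b were at 192 and 195 TPM and at 103 and 108 TPM in siCtrl and siScrt1. Pde4c, a cAMP phosphodiesterase, went from 2.12 ± 0.684 to 3.63 ± 1.05 TPM and passed with the block (log2 fold change 0.76, adjusted p = 0.296 without and 0.0477 with the block, limma). Of 15 tested genes known to respond to cAMP 0 passed by limma (3 at an unadjusted p under 0.05, where 11.1% of all tested genes were). One of them, Egr1, an immediate early gene, went from 2.21 ± 0.652 to 3.47 ± 0.502 TPM (log2 fold change 0.68, adjusted p = 0.120 without and 0.0367 with the block, limma), while the prohormone convertase Pcsk1 was at 460.01 and 417 TPM (adjusted p = 0.578, limma).

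Of 21 tested genes of receptor desensitization 0 passed (2 at an unadjusted p under 0.05, where 11.1% of all tested genes were), and Rgs20 had the largest difference, 4.04 ± 1.70 against 8.58 ± 5.52 TPM (log2 fold change 0.89, SE 0.400, adjusted p = 0.438, limma). Of the 7 tested ligand genes (Gcg, Sst, Gal, Npy, Pyy, Ppy and Ghrl) 0 passed by limma, also without adjustment. This list was not limited to ligands of the receptors followed here. Gcg, which encodes the ligands of Gcgr and Glp1r, was at 403 ± 161 TPM in siCtrl and 361 ± 106 in siScrt1 (adjusted p = 0.910, limma), and Sst, the somatostatin gene, at 63.3 ± 39.0 and 70.7 ± 45.8 TPM (adjusted p = 0.924, limma). Gcg and Sst are best known as products of α- and δ-cells, and the source of these transcripts was not tested.

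**Figure D4:**
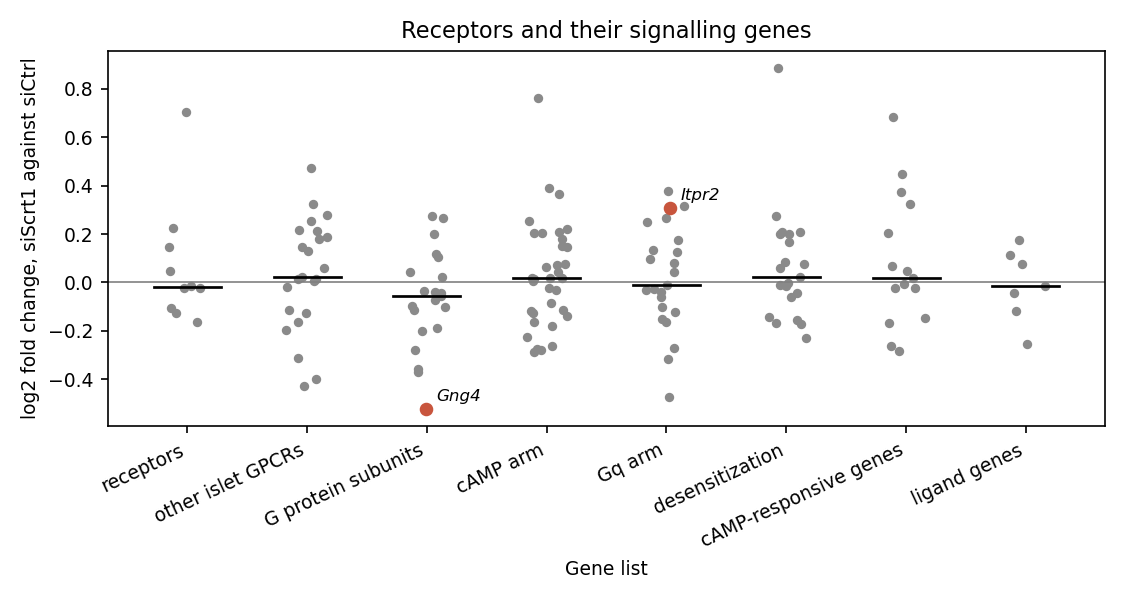
log2 fold change in siScrt1 against siCtrl (y axis) of each tested gene in the receptor set and in 7 lists of their signalling genes (x axis), 1 point per gene with a line at the median of each list. The medians lie between -0.06 and 0.02, and Casr at 0.70 lies above the other receptors.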

How the data were processed

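RNA from FACS-sorted adult rat β-cells was sequenced by the authors as single-end reads, 5 siCtrl and 5 siScrt1 libraries, grouped by the sample titles. The authors checked and trimmed reads (FastQC and Trimmomatic, per the submitters' processing notes), assigned them to Rnor6 transcripts with kallisto and scaled them between libraries with Sleuth. Tool versions are not given in the sources used here. The deposited signal is therefore an estimated count and a TPM value per transcript and library, both scaled, with TPM sums of 821278 to 1153952. A scaled count divided by the library's step (0.842 to 1.26 scaled counts a read) gave recovered reads, and CPM was computed from them. 50.04% of transcript values and 76.2% of gene values came out whole within 0.01 read, so no count model was used for the main fit. Rows without values (9363) were left out.

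Scaled counts and TPM were summed per Ensembl gene. log2(scaled count + 0.5) was fitted on group alone with limma 3.58.1 (lmFit, eBayes with trend; R 4.3.3), over the 12941 of 23918 genes that reached the CPM of 10 reads in a median library in at least 5 libraries and 15 reads in total. This scale understates changes of low genes. p-values were adjusted by Benjamini and Hochberg over all tested genes, with a threshold of 0.05. Single values were compared by exact two-sided permutation tests (scipy 1.17.1), and plots were drawn with matplotlib 3.10.9. On simulated data, 81.5% of 200 genes changed 2-fold among 12941 were recovered, and 7.91% of calls were unchanged genes. The simulated libraries shared no deviations by number. Changes smaller than 2-fold, such as those of the receptors, were not simulated, so their recovery is not known.

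The deposited table numbers the libraries 1 to 5 in each group, which the labels do not. Deviations from the group means of same-numbered libraries correlated over genes at 0.351, 0.131, 0.231, 0.198 and 0.234, so the number was taken to pair the libraries and was used as a block in an alternative fit. Libraries 2 and 3 of opposite groups correlated at up to 0.167, above the 0.131 of number 2. Other alternatives were scalings, filters, pseudocounts, TPM, limma-voom on recovered reads, the transcript with the most reads and leaving out each library. Named genes were Scrt1, the receptors and, from each signalling list, called genes, the 3 with the highest siCtrl TPM and the largest rise and fall. Gnai3 lies outside this rule. Members and lists were chosen with earlier results of these data known. The listed Vipr1, Galr2, Rgs11, Cort, G6pc2 and Pecam1 were not analysed here, Grk2 and Grk3 were read under these symbols and not as Adrbk1 and Adrbk2, and of Gnas and Pde4c, each with 2 gene identifiers, the one with more reads was used. Promoter windows came from RefSeq GRCr8.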

Additional observations from a re-analysis of the deposited data

Results flagged for a closer look

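Among 46 groups of 5 libraries examined, 4 had 1 library far from the rest, where about 2 would be flagged by chance. Glp1r in siCtrl replicate 2 was at 79.3 TPM, with the other siCtrl libraries from 112 to 126 TPM. Casr in siScrt1 replicate E was at 6.96 TPM, with the others from 4.12 to 4.53 TPM. The 4 lower siScrt1 libraries all lay above the highest siCtrl library, at 3.98 TPM. The summed mesenchymal markers were at 16.8 CPM in siCtrl replicate 4, with the others from 3.71 to 6.86 CPM, and at 30.9 CPM in siScrt1 replicate D, with the others from 4.72 to 8.74 CPM. Those libraries share the number 4, and neither held the highest nor the lowest Casr level of its group. The part of these cells in the receptor values was not tested.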

How the results depend on the processing

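The loss of Scrt1 held in all alternatives (log2 fold change -2.26 to -1.59). Casr was higher in siScrt1 in each of them. Its log2 fold change was 0.70 and past the threshold with the replicate block, which made 1 receptor changed in place of 0, and it ran from 0.57 to 0.82 when libraries were left out, with 0 to 1 receptors changed. With the block and both libraries of number 1 to 5 left out in turn, it was 0.76, 0.64, 0.75, 0.68 and 0.68 and passed. Among the fits that left out 1 library it passed in that without siCtrl replicate 5 (0.82). It did not pass under the other scalings, filters and tests, being 0.56 as log2(TPM + 1). For the other 9 receptors no alternative passed the threshold, and the block changed no other receptor call. The block gave 259 changed genes in place of 136, and leaving out 1 library gave 62 to 133, the fewest without siScrt1 replicate D (62), siScrt1 replicate E (64), siCtrl replicate 5 (77), siCtrl replicate 4 (82), siScrt1 replicate B (83) and siScrt1 replicate C (87). Changed genes in the signalling lists numbered 5 with the block in place of 2, 1 on either TPM scale, and 0 to 4 with 1 library left out (4 without siCtrl replicate 1, and 0 without siCtrl replicate 5 or siScrt1 replicate A, D or E). These lists held from 7 to 34 tested genes each. Over all tested genes, 2.00% were called with the block and 1.05% without it. The ratio of Glp1r to Casr was 25.9 by CPM. Of 200 receptor values under alternatives 16 changed sign, in 6 receptors and all on leaving out a library, with log2 fold changes of -0.25 to 0.029 in Gipr, -0.078 to 0.026 in Gcgr, -0.14 to 0.13 in Gpr119, -0.023 to 0.10 in Ffar1, -0.10 to 0.042 in Chrm3 and -0.25 to 0.017 in Adora1. Glp1r ran from 0.040, without siCtrl replicate 2, to 0.19. With 1 library left out, marker sums differed (siScrt1 minus siCtrl, CPM) by -90.0 to 2.24 for α-cells, -6.17 to 11.4 for δ- and PP-cells, -0.326 to 0.025 for endothelial and -1.22 to 6.05 for mesenchymal cells, and without siScrt1 replicate A the acinar sum passed unadjusted (exact permutation p = 0.0317). The cause of these changes was not tested. Casr rested on 143 to 467 reads a library and Glp1r on 3573 to 6184.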
